A study of Homo sapiens with 8 samples.

Results

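Genes of the pluripotent state, 5 in all, were examined for nearby binding regions of SMAD2 and TEAD4 in the human embryonic stem cell line WA09. PRDM14 and SALL4 encode zinc-finger transcription regulators, DPPA4 a chromatin-associated protein of early embryonic and germ cells, DNMT3B a de novo DNA methyltransferase, and LIN28B an RNA-binding protein that blocks maturation of let-7 microRNAs. The members were the called regions of 3 chromatin immunoprecipitation (ChIP-seq) lists that lay within 50 kb of these gene bodies on hg19. The gene bodies were DNMT3B at chr20:31350191-31397162, PRDM14 at chr8:70963886-70983562, LIN28B at chr6:105404923-105531207, SALL4 at chr20:50400583-50419048 and DPPA4 at chr3:109044988-109056419. Of 972037 regions in the lists, 285 were members. They comprised 119 of 420548 SMAD2 regions and 70 of 289380 TEAD4 regions from cells given the solvent DMSO, and 96 of 262109 TEAD4 regions from cells given 10 µM SB431542, each for 4 h.

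Every group came from the same line on Matrigel in medium conditioned by mouse embryonic fibroblasts, with 20% knockout serum, and each group was 1 library. The labels name 8 samples; SMAD2 under SB431542, the input DNA and the IgG precipitates were not analysed here. With no replicates, the spread between samples is unknown and no p-value is given. The intervals cover counting error only. The lists hold positions and no height, score or expression value, so depth is unknown, the cell type could not be checked against marker genes, and a region absent from a list was only not called there.

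Activin and Nodal signal through type I receptors that phosphorylate SMAD2, which then enters the nucleus with SMAD4 and acts on DNA together with partner factors such as FOXH1. In human embryonic stem cells this signal helps to maintain the undifferentiated state, and SB431542 inhibits the receptors. TEAD4 binds DNA for the coactivators YAP and TAZ of the Hippo pathway.

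SMAD2 and TEAD4 regions of DMSO cells were about as dense around the 5 genes as elsewhere, whereas TEAD4 regions of SB431542 cells were denser than the average of their list. Over the 5 windows, which total 722.8 kb, SMAD2 regions numbered 16.5 per 100 kb (95% exact Poisson interval 13.6 to 19.7), against a mean of 14.7 over 28566 bins of 100 kb that held any region. TEAD4 regions of DMSO cells numbered 9.68 per 100 kb (7.55 to 12.2), against 10.1 over the bins. TEAD4 regions of SB431542 cells numbered 13.3 per 100 kb (10.8 to 16.2), against 9.18 over the bins, and all 5 genes lay above that mean, from 11 to 15.9. No gene passed the 95th percentile of the bins (16), and LIN28B lay below their upper quartile (12). Of the single genes, only PRDM14 had an interval that began above 9.18 (9.56 to 24.8). With a flank of 100 kb the density over the 5 genes was 11.7 per 100 kb. With the SB431542 list not placed on the 50 bp grid that holds all starts of the DMSO lists (1.97% of its starts fell there), treatment and the making of the list cannot be told apart in any comparison of the TEAD4 lists.

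At each of the 5 genes the SMAD2 list had the most regions. PRDM14 had the most SMAD2 regions for its window, 23.4 per 100 kb (15.5 to 33.8; 28 regions), and LIN28B the fewest, 11.9 (7.86 to 17.4; 27 regions). The value for PRDM14 lay above the 95th percentile of the bins (22), but its interval began at 15.5, just above their median of 15. With flanks of 10 and 100 kb the PRDM14 value was 20.2 and 18.7 per 100 kb, both below 22. For TEAD4 in DMSO cells, DNMT3B was highest with 13.6 per 100 kb (8.31 to 21.0; 20 regions) and DPPA4 lowest with 6.28 (2.53 to 12.9; 7 regions). This order rests on the flank chosen: within 10 kb SALL4 was highest with 20.8 per 100 kb, DPPA4 had 12.7, DNMT3B 7.47, LIN28B 6.84 and PRDM14 lowest with 5.04. The intervals of the 5 genes overlapped within each list. DNMT3B had equal numbers of TEAD4 regions in both lists (20 each), while DPPA4 had 7 in DMSO and 15 in SB431542, and PRDM14 had 10 and 19. LIN28B had 20 and 25, and SALL4 13 and 17.

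**Figure D1:**
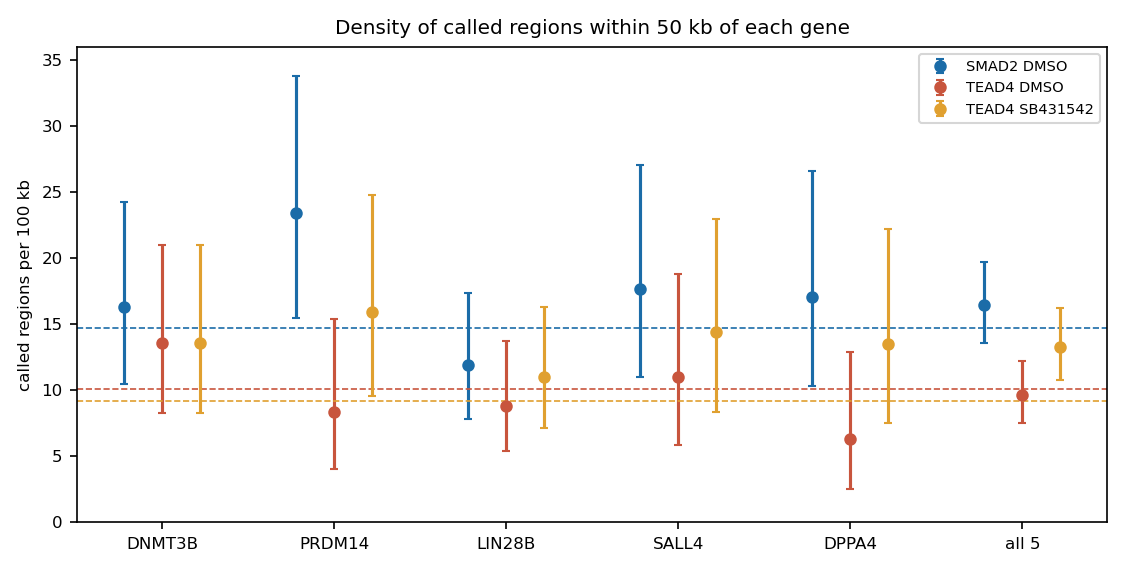
Called regions per 100 kb (y axis) within 50 kb of each gene and over all 5 windows (x axis), for SMAD2 in DMSO (blue), TEAD4 in DMSO (red) and TEAD4 in SB431542 (yellow). Bars are 95% exact Poisson intervals and dashed lines the mean of each list over 100 kb bins; for SB431542 all 5 genes lie above the dashed line at 9.18, and for SMAD2 the highest point is PRDM14 at 23.4.

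Over the 5 genes together, regions of each list were less dense in gene bodies than in flanks, by a small margin for SB431542, and single genes went both ways. Of the 119 SMAD2 regions, 29 touched a gene body, 49 lay upstream and 41 downstream, which gave 13.0 per 100 kb in bodies and 18.0 in flanks. TEAD4 regions of DMSO cells lay at 8.08 per 100 kb in bodies (18 regions) and 10.4 in flanks. Those of SB431542 cells lay at 13.0 in bodies (29 regions) and 13.4 in flanks. For TEAD4 in DMSO cells the body was less dense than the flanks at DNMT3B (6.39 against 17.0 per 100 kb), PRDM14 (5.08 against 9) and LIN28B (7.13 against 11), and denser at SALL4 (16.2 against 10.0) and DPPA4 (17.5 against 5). The bodies held few regions: from DMSO to SB431542 cells the number of TEAD4 regions went from 3 to 9 in DNMT3B, 9 to 12 in LIN28B, 1 to 3 in PRDM14, 3 to 4 in SALL4 and 2 to 1 in DPPA4.

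**Figure D2:**
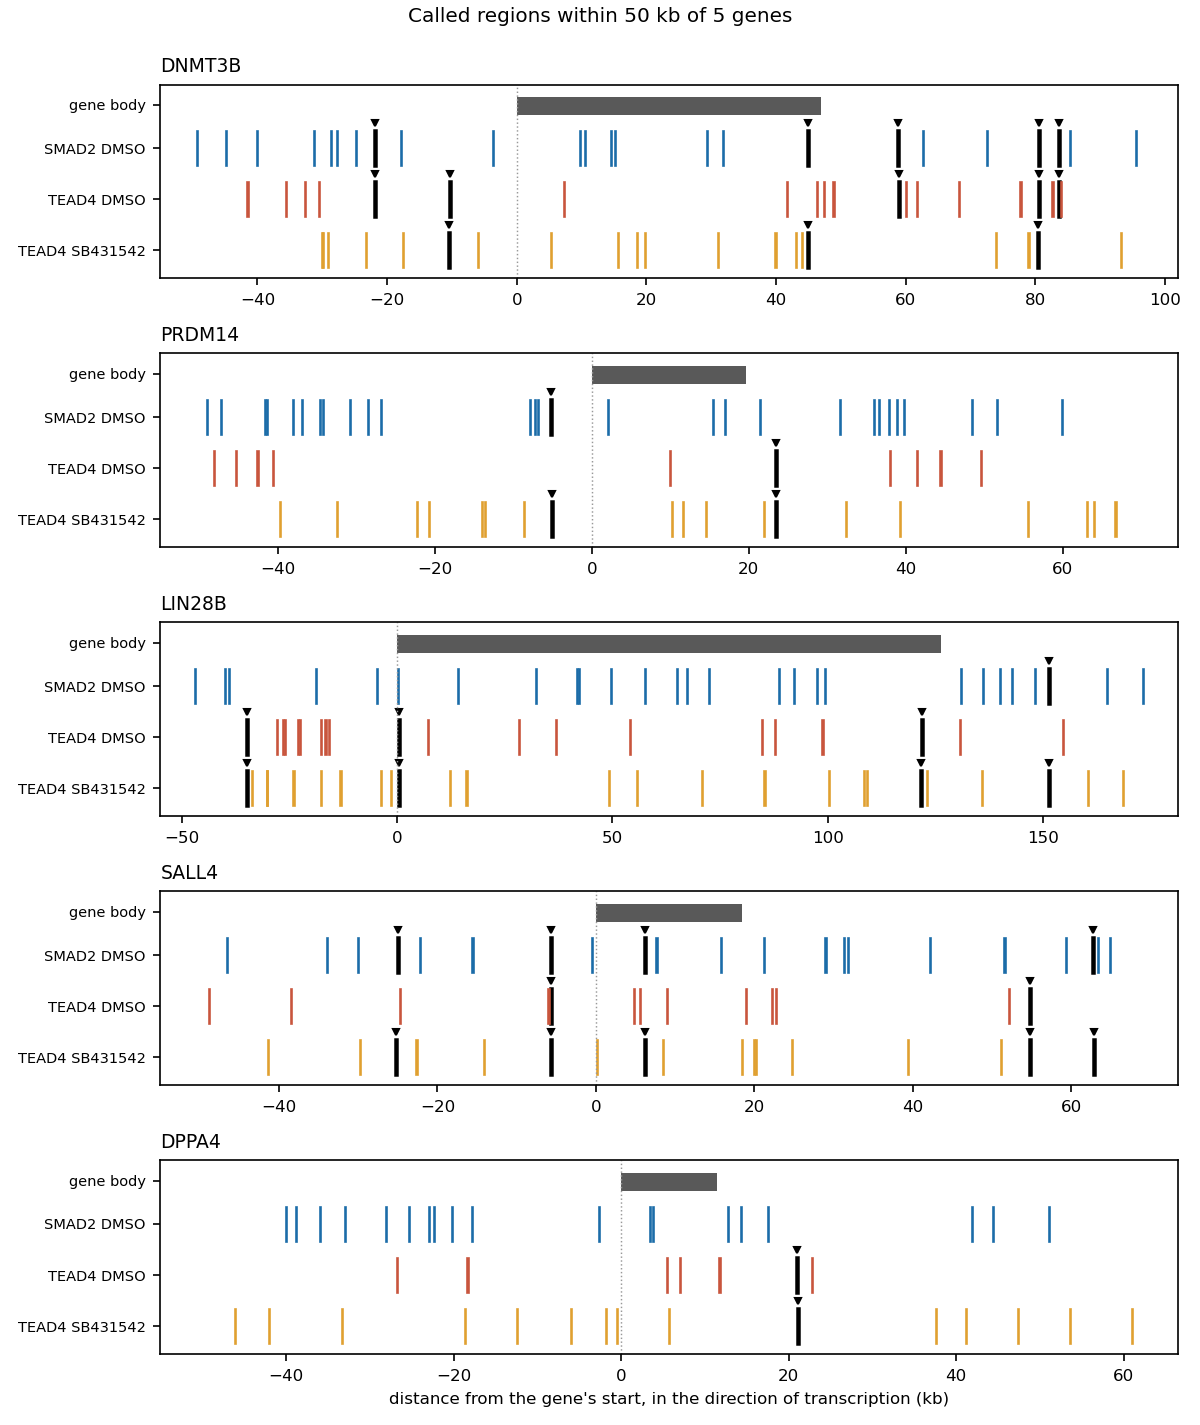
Position of each of the 285 regions along the 5 genes, as distance in kb from the start of the gene in the direction of transcription (x axis), with 1 track per list and the gene body in grey. Tick marks are drawn wider than the regions, and black ticks with a triangle are regions that overlap a region of another list (38 in all); the remaining 247 have no such partner.

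At the starts of the genes, regions of all 3 lists met only at LIN28B, and the other starts had regions of 1 or 2 lists or none within 2 kb. One start per gene was used, the upstream end of the hg19 gene body. The further starts of DNMT3B and LIN28B named below were not examined for nearby regions. At LIN28B a SMAD2 region (chr6:105404951-105405099, row 159291) began 28 bp past the start. A TEAD4 region of DMSO cells (chr6:105405151-105405399, row 31671) followed after a gap of 51 bp. A TEAD4 region of SB431542 cells (chr6:105405324-105405585, row 2062, in the first 0.787% of its list) overlapped the latter by 76 bp. Thus TEAD4 was called at the LIN28B start under both treatments, and SMAD2 beside it without overlap. A further SB431542 region lay 1321 bp upstream (row 59530).

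RefSeq promoter sequences (GRCh38.p14) were at hand for DNMT3B, LIN28B and DPPA4. Those of LIN28B and DPPA4 are shown, since their starts had called regions within 1 kb; they give the 250 bases before the start. The LIN28B entry, chr6:104956857-104957106 on the plus strand, starts 126226 bp from the end of the gene, close to the 126285 bp of the hg19 gene body. A second LIN28B entry, from a start 142368 bp from the end, is not shown; it held CAGAC from position -66 and no TEAD or FOXH1 match. The DPPA4 entry, chr3:109337547-109337796 on the minus strand, starts 11403 bp from the end of the gene, against 11432 bp on hg19. The DNMT3B entry begins at an internal start, 29505 bp from the end of a gene body of 46972 bp, and is not shown. The called regions themselves lie on hg19, whose sequence was not used here, and none lies within the 250 bases before the hg19 start of either gene. Both RefSeq starts are nearer to the gene end than the hg19 start, so the sequences shown may run past the hg19 start. The SMAD2 region that begins 28 bp past the hg19 start of LIN28B may therefore reach into the sequence shown. Capitals mark matches to 3 short motifs on either strand: GGAATG for TEAD, CAGAC for SMAD and TGTNNATT for FOXH1, with N any base.
LIN28B: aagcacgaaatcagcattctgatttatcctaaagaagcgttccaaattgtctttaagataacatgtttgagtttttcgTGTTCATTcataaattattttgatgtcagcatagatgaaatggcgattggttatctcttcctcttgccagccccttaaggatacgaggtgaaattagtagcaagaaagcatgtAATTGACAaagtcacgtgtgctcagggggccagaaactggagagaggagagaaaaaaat
DPPA4: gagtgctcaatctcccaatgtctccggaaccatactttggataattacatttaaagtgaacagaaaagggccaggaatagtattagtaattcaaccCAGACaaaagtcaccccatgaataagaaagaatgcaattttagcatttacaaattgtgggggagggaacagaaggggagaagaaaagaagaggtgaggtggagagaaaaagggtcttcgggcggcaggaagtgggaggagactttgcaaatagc

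The LIN28B promoter shown held 2 matches to the FOXH1 motif, TGTTCATT from position -172 and AATTGACA from position -59, counted back from the start, and none to the other motifs. The DPPA4 promoter held 1 match to the SMAD motif, CAGAC from position -154, and none to the TEAD or FOXH1 motif. The marked matches do not overlap one another. Of 35116 RefSeq promoters cut to the same 250 bases, 9.88% held the FOXH1 motif, 38.0% the SMAD motif and 11.9% the TEAD motif, so such matches are common. They describe letters and not bound sites.

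The SALL4 start carried a TEAD4 region of SB431542 cells 34 to 160 bp past it (chr20:50418888-50419014, row 100309) and a SMAD2 region 353 to 551 bp before it (chr20:50419401-50419599, row 199395). No TEAD4 region of DMSO cells lay closer than 4699 bp. At DPPA4, TEAD4 regions of SB431542 cells lay 367 bp (chr3:109056786-109056927, row 198651) and 1751 bp (chr3:109058170-109058348, row 75203) upstream, and the closest TEAD4 region of DMSO cells lay 5370 bp inside the gene. At PRDM14 a SMAD2 region lay 1963 bp past the start (row 254563), with TEAD4 no closer than 4982 bp. The start of DNMT3B had no region of any list within 2 kb; the closest were a SMAD2 region 3592 bp upstream and a TEAD4 region of SB431542 cells 5239 bp downstream. Of the regions within 2 kb of a start, the SB431542 region of LIN28B in row 2062 was the only one in the first 5% of its list.

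**Figure D3:**
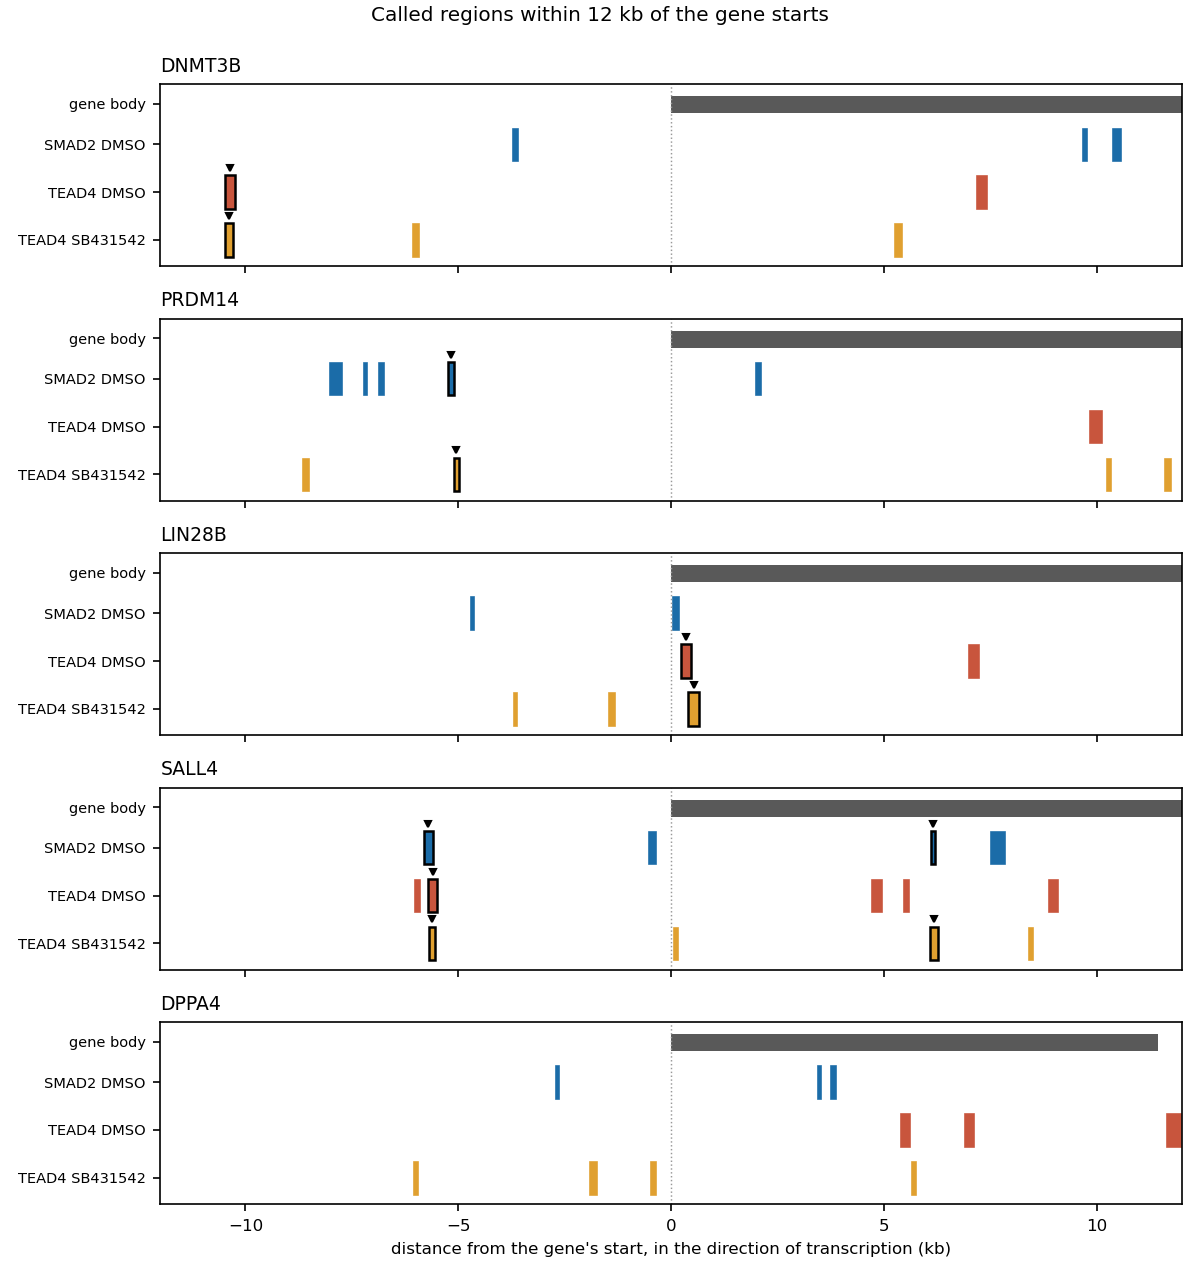
Called regions within 12 kb of the start of each gene (x axis, distance from the start in kb in the direction of transcription), drawn to scale in width, with 1 track per list and the gene body in grey. Black outlines with a triangle mark regions that overlap a region of another list; at LIN28B regions of all lists lie between 28 and 662 bp past the start, and at DNMT3B none lies within 2 kb.

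Overlap between lists was rare near the 5 genes, and for SMAD2 with TEAD4 in DMSO cells it was close to the share over the whole lists. TEAD4 of DMSO cells met 5 of the 119 SMAD2 regions (4.20%; the 95% Wilson interval was 1.81 to 9.46%), whereas the share was 5.29% over all SMAD2 regions. Of the 70 TEAD4 regions 5 (7.14%, 3.09 to 15.7%) overlapped SMAD2, against 7.67% over the list. Of these 5 pairs, 4 were near DNMT3B and 1 near SALL4, and PRDM14, LIN28B and DPPA4 had none (0 of 28, 0 of 27 and 0 of 19 SMAD2 regions, with upper Wilson bounds of 12.1, 12.5 and 16.8%). Neighbouring regions are not independent, so these intervals are too narrow to set the genes apart.

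TEAD4 regions of DMSO cells overlapped those of SB431542 cells at a higher share near the 5 genes than over the list. Of the 70 regions 9 (12.9%, 6.91 to 22.7%) did, against 5.69% of all TEAD4 regions of DMSO cells, and each gene had 1 to 3 of them. In the other direction 9 of 96 (9.38%, 5.01 to 16.9%) did, against 6.39% of the SB431542 list. SMAD2 regions overlapped TEAD4 regions of SB431542 cells in 8 of 119 cases (6.72%, 3.45 to 12.7%), against 3.39% over the list. Of the 96 TEAD4 regions of SB431542 cells 8 (8.33%, 4.28 to 15.6%) overlapped SMAD2, against 5.46%. The SB431542 list was also denser at these genes, as given above, and its part in the higher shares was not tested. The genes were proposed with results of these data known, so the excess is a description.

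**Figure D4:**
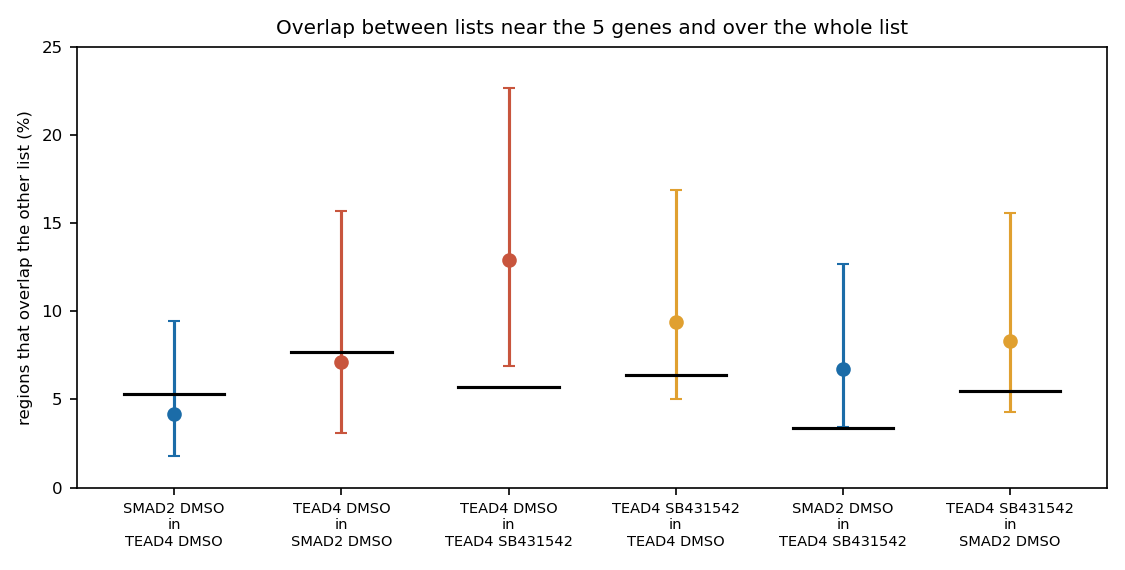
Share of the regions near the 5 genes that overlap a region of another list by at least 1 bp (y axis, %), for the 6 ordered pairs of lists (x axis). Points carry 95% Wilson intervals and black lines give the share over the whole list; the interval for TEAD4 of DMSO in SB431542, 6.91 to 22.7%, lies above its line at 5.69%, and that for SMAD2 in SB431542 begins at 3.45%, just above its line at 3.39%.

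The overlapping regions fell at 18 places: 7 with TEAD4 under both treatments, 6 with SMAD2 and TEAD4 of SB431542 cells, 3 with SMAD2 and TEAD4 of DMSO cells, and 2 with all lists. One of the places shared by all lists lay 5.5 kb upstream of SALL4. There TEAD4 was called at chr20:50424551-50424749 in DMSO (row 238248) and at chr20:50424606-50424739 in SB431542 (row 143069), and SMAD2 at chr20:50424651-50424849 (row 63601). The SMAD2 region shared 99 bp with the first and 89 bp with the second. The other lay downstream of DNMT3B, where SMAD2 and TEAD4 of DMSO cells had identical coordinates (chr20:31430701-31430849, rows 284307 and 213622) and TEAD4 of SB431542 cells shared 82 bp with both (chr20:31430585-31430782, row 30673). Of the 70 TEAD4 regions of DMSO cells near the genes, 2 met both other lists (2.86%, 0.787 to 9.83%), against 1493 of 289380 over the list (0.516%).

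The row order of each list was read as the authors' ranking, which no source states, and it is coarse. Within each list, long stretches of rows run down the chromosomes in reverse alphabetical order and down the positions within each chromosome. Stretches of at least 20 rows held 83.2% of the SMAD2 rows, 96.1% of the TEAD4 rows of DMSO cells and 91.9% of those of SB431542 cells. The median member lay in a stretch of 324, 664 and 543 rows, respectively, so that rows within 1 stretch may differ in position alone. Ranks are compared within a list only.

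Within 50 kb of the 5 genes, the share of regions in the first rows was highest for TEAD4 of DMSO cells and lowest for SMAD2. At this flank none differed from the share of the list by more than counting error. In the first 10% of rows, which holds 10.0% of each list, there were 11 of 70 TEAD4 regions of DMSO cells (15.7%, 9.01 to 26.0%). The numbers were 11 of 96 for SB431542 (11.5%, 6.52 to 19.4%) and 9 of 119 for SMAD2 (7.56%, 4.03 to 13.8%). All of these intervals include 10.0%. The 9 SMAD2 regions were at PRDM14 (4), SALL4 (3) and LIN28B (2). Of the 11 high-ranked TEAD4 regions of DMSO cells, 9 lay in a gene body or within 10 kb of one. The other 2 were upstream of PRDM14, 42.4 and 45.2 kb from it. Within 10 kb the 9 made up 31.0% of the 29 regions, which is above the interval for 50 kb (9.01 to 26.0%). At the same 10 kb flank the share was 8.89% (4 of 45) for SMAD2 and 8.89% (4 of 45) for SB431542.

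**Figure D5:**
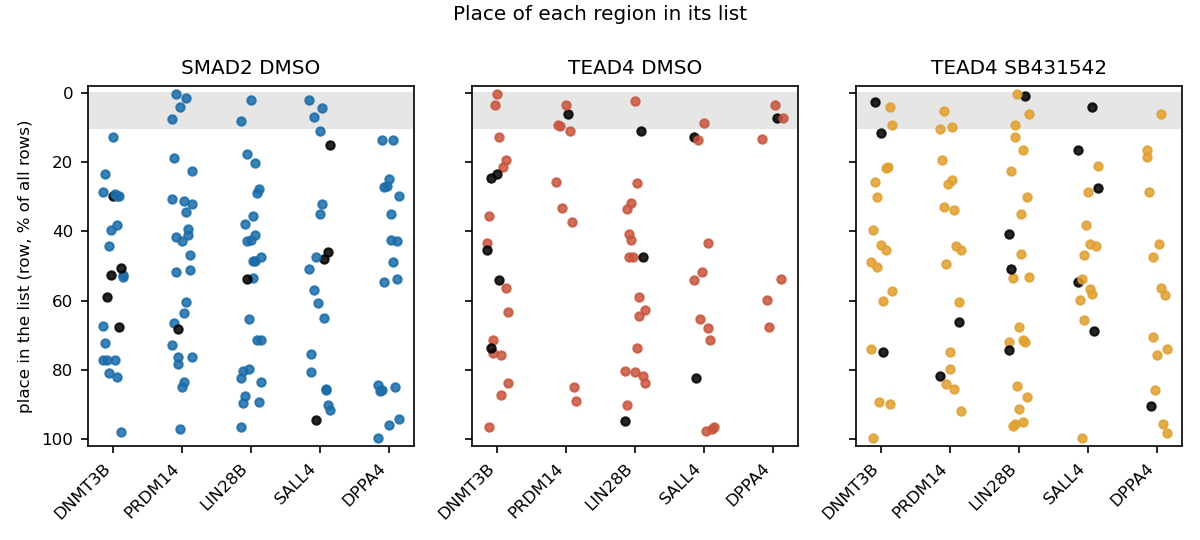
Place of each region in its list as the row in percent of all rows (y axis, first row at the top), by gene (x axis) and list (panels). The grey band is the first 10% of rows and black points overlap a region of another list; DNMT3B and DPPA4 have no SMAD2 point in the band, and LIN28B has 4 of the 11 points of SB431542.

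PRDM14 held the highest-ranked SMAD2 region among the members. Its share of SMAD2 regions in the first 10% of rows (4 of 28) was no higher than that of SALL4 (3 of 21). The leading region of PRDM14 (chr8:70991301-70991599, row 1578, in the first 0.375% of the list) lay 7739 bp upstream of the start. It was the outermost of 4 SMAD2 regions within 2.95 kb, a grouping noticed in the data. The group's member closest to the start (chr8:70988651-70988799, row 286866) overlapped a TEAD4 region of SB431542 cells by 22 bp (chr8:70988544-70988672, row 214495). Other SMAD2 groups with at most 3 kb between neighbours were also present. PRDM14 had 5 regions within 3.90 kb and 4 within 3.95 kb, DNMT3B 5 within 9.65 kb, and DPPA4 6 within 10.4 kb and 4 within 7.20 kb. The TEAD4 region of DMSO cells closest to the leading SMAD2 region was 17551 bp away, and that of SB431542 cells 469 bp away. Further SMAD2 regions in the first 5% were at chr8:70931801-70932049 (row 6257), downstream of the gene, and at chr8:70966501-70966599 inside it (row 16932).

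The leading TEAD4 region of PRDM14 in DMSO cells (chr8:71026001-71026299, row 9992) was 42.4 kb upstream, and that of SB431542 cells (chr8:71005666-71005894, row 13411) 22.1 kb upstream. The single place called for TEAD4 under both treatments was 3737 bp past the end of the gene, at chr8:70960051-70960149 in DMSO (row 17922), wholly inside an SB431542 region (chr8:70959998-70960195, row 173812).

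SALL4 had its leading SMAD2 region inside the gene, 7499 bp past the start (chr20:50411201-50411549, row 9222), and a further one in the first 5% 15.4 kb upstream (chr20:50434451-50434749, row 18160). Neither overlapped TEAD4. Its leading TEAD4 region of DMSO cells was also inside the gene (chr20:50414101-50414349, row 25149), 4699 bp past the start. The leading region of SB431542 cells (chr20:50364160-50364357, row 11040) lay 36226 bp past the end of the gene and shared 190 bp with a TEAD4 region of DMSO cells (chr20:50364151-50364349, row 36337). SMAD2 met TEAD4 of SB431542 cells alone at 3 places, by 31 bp at chr20:50356201-50356299 (row 397295), by 99 bp at chr20:50412851-50412949 (row 201292), which lies wholly inside the partner, and by 7 bp at chr20:50444001-50444149 (row 192894). SALL4 therefore held 4 of the 8 SMAD2 regions near the genes that overlapped this list.

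DPPA4 had few TEAD4 regions in DMSO cells, but 3 of its 7 were in the first 10% of the list. The leading one (chr3:109050801-109051049, row 10302) lay inside the gene, 5370 bp past the start, and lay 7 bp from a TEAD4 region of SB431542 cells without overlapping it. The next, inside the gene (chr3:109049301-109049549) and 9489 bp past its end (chr3:109035251-109035499), stood in consecutive rows, 21376 and 21377, of a stretch of 2505 rows. The latter overlapped a TEAD4 region of SB431542 cells by 54 bp (chr3:109035191-109035304, row 236957), the only overlap near DPPA4. SMAD2 led with row 57387 (chr3:109092251-109092449), 35.8 kb upstream. The leading region of SB431542 cells (chr3:109002733-109002930, row 15961) lay 42058 bp past the end.

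DNMT3B held the highest-ranked TEAD4 region of DMSO cells among the members. It lay inside the gene toward its end (chr20:31391751-31392099, row 1263, in the first 0.436%), and the closest region of SB431542 cells was 1129 bp away. A second one in the first 5% (chr20:31398801-31399249, row 9790) lay 1639 bp past the end of the gene, and neither had a partner in another list. Upstream, TEAD4 was called under both treatments 10242 bp before the start, with 200 bp in common (DMSO chr20:31339701-31339949, row 70876; SB431542 chr20:31339700-31339900, row 6758). That SB431542 region was the leading one at DNMT3B. The next in the first 5% (chr20:31344097-31344279, row 10409), 5912 bp upstream, had no partner.

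SMAD2 met TEAD4 of DMSO cells near DNMT3B at chr20:31328251-31328449, wholly inside its partner, and at chr20:31409001-31409149, which shares its first base with its partner. A further pair was at chr20:31433851-31433949, which shares its last base with its partner, and the fourth was the place in all lists given above. The SMAD2 regions of these 4 pairs were in rows 125739, 212924, 221392 and 284307, and none of the 24 SMAD2 regions at DNMT3B was in the first 10% of the list; the leading one was row 53725 (chr20:31412801-31412999). Inside the gene, SMAD2 met TEAD4 of SB431542 cells by 138 bp at chr20:31395001-31395149 (rows 247771 and 196703). Downstream, 5 TEAD4 regions of DMSO cells lay within 6.55 kb, from 31427701 to 31434249, and included both distal places shared with SMAD2. With the same spacing of at most 3 kb, LIN28B had 5 TEAD4 regions of DMSO cells within 5.55 kb and PRDM14 4 within 7.70 kb. The protein-coding neighbour downstream of DNMT3B in GRCh38.p14 is MAPRE1, whose hg19 position was not used here.

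LIN28B held the highest-ranked TEAD4 region of SB431542 cells among the members, 12.2 kb inside the gene (chr6:105417102-105417328, row 1095, in the first 0.418%). The closest TEAD4 region of DMSO cells was 4952 bp away. With the region at the start in row 2062, both leading regions of SB431542 cells lay in the first 10% of the gene body. The leading TEAD4 region of DMSO cells (chr6:105535451-105535699, row 6631) was past the other end of the gene, by 4244 bp, and a SMAD2 region lay 151 bp away from it. The leading SMAD2 region (chr6:105436951-105437249, row 8600) lay 32.0 kb past the start, inside the gene, without a partner.

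LIN28B had 3 places called for TEAD4 under both treatments. Beside that at the start, they lay 34.8 kb upstream, where the SB431542 region (chr6:105369982-105370086, row 107268) was wholly inside the DMSO region (chr6:105369951-105370099, row 274237), and near the end of the gene, with 8 bp in common (chr6:105526701-105527049, row 137132, and chr6:105526562-105526708, row 133727). SMAD2 met TEAD4 of SB431542 cells once, by 95 bp, downstream of the gene (chr6:105556201-105556399, row 226447, and chr6:105556150-105556295, row 194648). No SMAD2 region of LIN28B overlapped TEAD4 of DMSO cells.

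The remaining members had no partner and lay outside the first 5% of rows. Member widths ran from 99 to 399 bp for SMAD2 (median 149 bp, as over the list), from 99 to 549 bp for TEAD4 in DMSO (median 199 bp, as over the list) and from 99 to 262 bp for TEAD4 in SB431542 (median 148 bp, against 145 bp over the list). The member closest to the limit of the window lay 49485 bp from DPPA4 (TEAD4 in SB431542, row 43411), and the closest region left out lay 50203 bp from SALL4 (SMAD2, row 407995).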

How the data were processed

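The authors deposited 3 lists of called regions with 3 columns each (chromosome, start and end in bp) and no score, height or count. Per the submitters' processing notes the build is hg19; for the aligner, peak caller, threshold, control library and depth, nothing is stated (not given in the sources used). Each list was tied to a sample by target and treatment. Starts were raised by 1 bp for printing and widths are end minus deposited start. The labels do not say whether peaks were called on pooled samples.

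The members, gene lists and motifs were chosen with earlier results of these data known. Gene bodies came from the member rule, strands from general knowledge, checked against the RefSeq table for 3 of the genes. Regions touching a gene body or its 50 kb flanks were counted, and overlap meant at least 1 bp. Named regions were the smallest row per gene and list, regions within 2 kb of a start, overlapping regions, and those in the first 5% of rows. Genes of similar pattern, exons and region sequences need hg19 annotation and were not analysed here. Overlap functions were tested on simulated data. Computations ran in Python 3.11.15 with SciPy 1.17.1 and NumPy 2.4.6, and figures in matplotlib 3.10.9. Alternatives changed the overlap rule, flank, rows and widths.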

Additional observations from a re-analysis of the deposited data

How the results depend on the processing

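Values are percents of regions near the 5 genes, each as a share of both lists compared; requiring 50% of both regions or shorter lists lowers a share by construction. With 50% of both regions required, SMAD2 and TEAD4 of DMSO cells shared 1.68% and 2.86% (1.72% and 2.50% over the lists), and SMAD2 and TEAD4 of SB431542 cells 1.68% and 2.08% (1.35% and 2.17%). In the first 50% of rows of each list these pairs shared 0% of both lists (3.46% and 5.02% over the lists), and 1.69% and 2.04% (2.06% and 3.32%), so here neither share was above that of the list. In the first 10% of rows no list shared a region with another (0% of each, from 9 or 11 regions; 0.573 to 5.60% over the lists). Allowing a gap of 500 bp, chosen after seeing the data, gave 9.24% and 18.6% for SMAD2 and TEAD4 of DMSO cells (15.4% and 22.1% over the lists), 28.6% and 20.8% for TEAD4 of DMSO and SB431542 (14.7% and 16.4% over the lists), and 20.2% and 22.9% for SMAD2 and SB431542 (12.4% and 19.7%). Of the 48 alternatives for overlap, 29 stayed within the interval given, the 9.24% among them. Densities in the first 50% of rows were 8.16 (SMAD2), 4.98 (TEAD4 in DMSO) and 6.78 (SB431542) per 100 kb, lower by construction. With a 10 kb flank, 31.0% of TEAD4 regions of DMSO cells were in the first 10% of rows, and their density moved by over 1.5 times at DNMT3B (7.47), PRDM14 (5.04), SALL4 (20.8) and DPPA4 (12.7 per 100 kb), so the order of the genes rests on the flank. That of SB431542 did too: SALL4 was highest with 20.8, before PRDM14 with 17.6. No paired analysis was possible because only 1 library was made per group, and for the same reason leave-one-out values do not exist. Depth is unknown.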

Other observations

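The row order of the lists holds a pattern that bears on any ranking taken from them. Where a row and the next lie on the same chromosome, the next has the lower position in 99.81% of such steps for SMAD2, 99.97% for TEAD4 in DMSO and 99.90% for TEAD4 in SB431542. The longest stretches in falling order held 8992, 11104 and 1780 rows. In the SB431542 list every stretch of at least 20 rows held regions of 1 width only (100% of 1063 stretches), against 1.38% of 2383 for SMAD2 and 0.412% of 729 for TEAD4 in DMSO. In the first 1000 rows the median row lay in a stretch of 6, 6.50 and 2 rows, so the head of each list is ordered more finely than the rest. The cause was not tested. At these genes the pattern puts the SMAD2 regions of DNMT3B at chr20:31328251-31328449, chr20:31346451-31346599 and chr20:31364651-31364849 in neighbouring rows (125739, 125738 and 125737), and the leading TEAD4 regions of PRDM14 and DPPA4 in DMSO cells (rows 9992 and 10302) in the same stretch of 1063 rows, from row 9859 to row 10921.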
